A study of Mus musculus with 6 samples.

Results

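Annotated cassette exons over 27 bases were examined in mouse podocyte libraries labelled wild type or CD2BP2 knockout. A cassette exon is an internal exon that the spliceosome can take into a messenger RNA or leave out. The exons were chosen from the annotation in the deposited tables and not from measured values. They are exonic parts of single genes that touch no other part of their gene, are over 27 bases long and are missing from at least 1 transcript of the gene, and every transcript that holds them has parts on both sides. The rule found 67294 exons in 9926 genes, of 368092 exonic parts in all.

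CD2BP2 belongs to the U5 particle of the spliceosome, whose RNA loop touches the exon ends that are being joined. It carries a GYF domain. Such a domain binds proline-rich stretches of other splicing proteins. Podocytes are the octopus-shaped epithelial cells that wrap the capillaries of the kidney glomerulus, and the transcription factor WT1 and the actin cytoskeleton keep their foot processes in place. A cassette exon whose length is a multiple of 3 can be added or skipped without shifting the reading frame. One whose length is not a multiple of 3 shifts the frame when it is skipped or included, and many such exons occur in transcripts that are degraded by nonsense-mediated decay.

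Polyadenylated RNA was sequenced in 6 libraries of cells labelled podocytes on a C57BL/6 background. The 3 KO libraries are labelled as CD2BP2 knockout and the 3 WT control libraries as wild type. The knockout allele carries loxP sites, with the downstream site behind the third exon of Cd2bp2. The labels name MxCre and poly(I:C) only in a text about bone marrow macrophages, do not name the Cre line or the age of the podocyte donors, and do not say that the libraries came from separate animals. P-values therefore measure the spread between these libraries.

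Part counts summed to between 186022084 and 255554573 per library. Cd2bp2 itself was at 60.8, 61.8 and 60.8 CPM (summed part counts scaled to library size with TMM factors) in WT and at 48.4, 47.3 and 51.1 in KO, a mean of 61.1 ± 0.587 (SD, n = 3) against 48.9 ± 1.93 (SD, n = 3). The share of Cd2bp2 counts in the 5 parts at its 5′ end averaged 16.6% ± 0.807 over WT and 13.6% ± 0.528 over KO libraries (SD, n = 3), and the libraries of the groups did not overlap on either measure. No Cd2bp2 part is among the 67294 exons. All 10 podocyte markers were detected, 3 of them with a higher mean in KO, with a summed level of 23600 to 26460 CPM in WT and 21380 to 23240 in KO. Markers of other cells also differed in mean. All 12 proximal tubule markers had a higher mean in KO (538 to 1016 CPM summed in WT, 882 to 1331 in KO). So did all 12 markers of loop, distal tubule and collecting duct (218 to 386 against 312 to 1598, with the highest sum in KO2). The same held for all 10 macrophage markers (105 to 135 against 198 to 219) and all 9 lymphocyte markers (22.7 to 42.0 against 38.2 to 66.96). Among the sums that were higher in KO, the libraries of the groups were apart for macrophage markers and overlapped for the others. Of the 9 endothelial markers, 1 had a higher mean in KO (7303 to 7699 against 6712 to 7140 summed), and of the 9 of mesangium and smooth muscle, 2 did (2722 to 2990 against 2556 to 3061). None of these markers was at 0 in every library. In bulk RNA, more cells of a type and more RNA per cell cannot be told apart. The part of these cells in the exon results below was not tested.

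The sequences of 7 coding exons on which the results turn are shown first, from 5′ to 3′ on the strand of the gene. The last 3 bases, which lie at the 5′ splice site, are in capitals. The sequences come from the GENCODE M21 transcripts on GRCm38, matched by transcript identifier and by the lengths of the exon and its neighbours. The coordinates are those of the deposited tables, on NCBIM37. The first 5 exons have a transcript that joins their own neighbours and skips them. The last 2 are the alternative exons of U2af1, of which each annotated transcript holds 1.
Wt1 part 13 (chr2:104984299-104984349, plus strand): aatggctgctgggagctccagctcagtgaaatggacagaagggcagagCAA
Phactr4 part 17 (chr4:131939197-131939277, minus strand): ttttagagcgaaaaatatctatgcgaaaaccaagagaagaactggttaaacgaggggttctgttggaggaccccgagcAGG
Atp13a3 part 2 (chr16:30321892-30321981, minus strand): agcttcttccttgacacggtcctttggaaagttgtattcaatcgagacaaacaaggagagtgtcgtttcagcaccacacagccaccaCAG
Sgip1 part 49 (chr4:102607151-102607210, plus strand): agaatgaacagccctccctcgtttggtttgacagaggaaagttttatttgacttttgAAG
Astn2 part 21 (chr4:65780091-65780246, minus strand): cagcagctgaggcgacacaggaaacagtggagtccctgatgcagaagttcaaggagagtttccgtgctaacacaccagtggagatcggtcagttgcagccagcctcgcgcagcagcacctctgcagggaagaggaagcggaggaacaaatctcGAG
U2af1 part 6 (chr17:31788591-31788657, minus strand): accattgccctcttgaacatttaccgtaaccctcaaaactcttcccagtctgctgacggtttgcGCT
U2af1 part 7 (chr17:31789447-31789513, minus strand): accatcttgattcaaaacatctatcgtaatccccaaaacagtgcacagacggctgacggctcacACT

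The name cassette exon held, by annotation, for 12136 of the 67294 exons (18.0%). For these a transcript exists that has parts on both sides and lacks the exon. In 6406 of them, in 4611 genes, such a transcript holds both neighbours of the exon and skips it alone, which is the classical cassette pattern; these are called skipped exons below. A further 5730 are passed over in another way, for example within a block of several exons or as 1 of a mutually exclusive pair. The other 55158 (82.0%) have no skipping transcript: the transcripts that lack them lie wholly to one side, as short or partial models do.

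Read density separated these classes. Density was taken as counts per base in percent of the mean of the nearest part on each side, for exons with a mean of at least 100 counts per library in each of those parts. The median was 61.5% in the 2439 skipped exons with such neighbours, with quartiles at 8.52% and 99.9%. It was 93.7% in exons passed over in another way, 98.5% in exons with no skipping transcript and 103% in internal exons that every transcript holds. Skipped exons were under 50% of their neighbours in 44.5% of cases, against 9.89%, 4.70% and 1.27% in the other classes in that order.

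**Figure D1:**
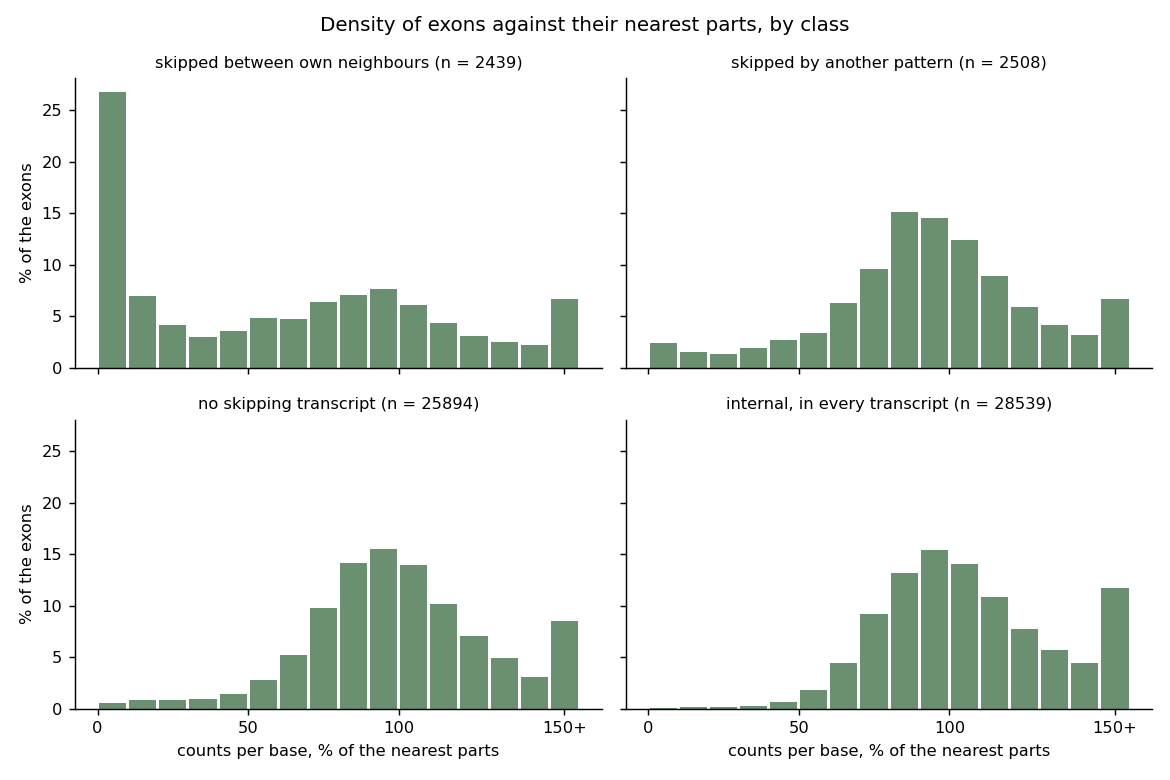
Histograms of counts per base of each exon in percent of the nearest parts (horizontal axis, bins of 10 points with all values from 150 in the last), as percent of the exons of a class (vertical axis), over all 6 libraries. Of the skipped exons 26.8% lie in the lowest bin, while the other 3 classes peak near their neighbours' level.

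Frame and coding content were described by class and by inclusion. Of the skipped exons 52.0% had a length that is a multiple of 3, against 40.5% of exons passed over in another way, 40.4% of exons with no skipping transcript and 37.0% of all parts. For 3445 skipped exons both flanking exons of the skipping event had a mean of at least 100 counts per library. The exon's density in percent of those flanks is called its inclusion ratio here. The ratio is a density and not a share of transcripts, and it can exceed 100%. Counts per base varied with length. Where the nearest parts were as deep, exons of 28 to 36 bases had a median density of 166.5%, against 96.8% over the rule. The median inclusion ratio was 48.8% in WT and 51.1% in KO. The inclusion ratio was under 5% for 817 of them, 5 to 25% for 602, 25 to 75% for 708 and at least 75% for 1318. Among exons matched to GENCODE M21, 24.6% of the lowest band were coding throughout, against 48.4%, 78.1% and 91.2% in the next bands. The share with a length that is a multiple of 3 was 44.6% in the lowest band, 56.6% and 58.1% in the middle bands and 52.9% in the highest. Transcripts of the type nonsense-mediated decay were the sole holders of 8.70% of the skipped exons and of 0.260% of exons with no skipping transcript. The final bases did not separate the classes: 56.0% of skipped exons and 56.5% of exons with no skipping transcript ended in AG.

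Usage was then compared between KO and WT. Usage is the exon's count in percent of the summed part counts of its gene, so a change in the level of the whole gene cancels. The test was edgeR's quasi-likelihood test with the gene sum as offset, fitted on 236050 parts with p-values adjusted over all of them by Benjamini-Hochberg, and 49948 of the exons entered it. The usage of 38 exons in 24 genes changed at an adjusted p under 0.05, 24 higher and 14 lower in KO. This is 0.0761% of the exons tested (0.0480% higher and 0.0280% lower), below the 0.140% of all parts (331 of 236050, with 0.0758% higher and 0.0644% lower). All 38 had groups whose usage did not overlap, but they were picked by p on the same values, so this adds no support. The median log2 change was -0.00 over the exons and -0.00 over all parts, and the median SE of an exon was 0.08. Without WT1, WT2, WT3 or KO1 the number of exons past the threshold fell to 15, 9, 23 and 9, and with the nearest parts in place of the gene sum as offset it was 1 (0.00207% of 48365 exons, against 0.0101% of all parts).

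The calls were then counted by class. Of 8058 tested exons with an annotated skip 23 passed (0.285%), in 13 genes. Skipped exons gave 8 of 4045 (0.198%), 4 higher and 4 lower. Exons passed over in another way gave 15 of 4013 (0.374%), of which 11 are 1 block of Nebl. Exons with no skipping transcript gave 15 of 41890 (0.0358%), close to the 12 of 39505 (0.0304%) of internal exons in every transcript. At an unadjusted p under 0.05 the shares were 10.2% of skipped exons (412), 5.46% of exons passed over in another way, 4.42% of exons with no skipping transcript, 3.79% of internal exons in every transcript and 6.00% of all parts. The difference between these shares was not tested, since exons of a gene are not independent.

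By inclusion, 5 of the 8 changed skipped exons were in the band of 25 to 75%, 1 was in the band of 5 to 25% and 2 were under 5%. None of 1318 exons in the highest band passed edgeR's test, where 91 had an unadjusted p under 0.05, DESeq2 called 2, limma's diffSplice 1 and diffSpliceDGE 0. In the lowest band the median log2 usage against the WT mean differed between KO libraries, at -0.26 in KO2 and 0.10 in KO3. Of 345 tested exons held only by nonsense-mediated decay transcripts, 1 passed (0.290%, in Shisa3), beside 0.140% of all parts. An unadjusted p under 0.05 was found for 52 of them (15.1%, against 6.00% of all parts), 27 higher and 25 lower in KO. A similar share was found in skipped exons, at 12.4%, 15.9% and 14.8% in the bands under 5%, 5 to 25% and 25 to 75%.

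Of the 8 skipped exons that changed, 4 were used more in KO, in Tjap1, Phactr4, Atp13a3 and Wt1. All 8 also had an unadjusted p under 0.05 against their nearest parts, with the same sign, though none passed the adjustment there. In that fit 408 of 3909 skipped exons had such a p. The 8 were picked on the same exon counts, so this is not independent support. With diffSpliceDGE 2 of the 8 passed (Clip1 and Myl12a), and with limma's diffSplice 2 (Clip1 and Atp13a3). The length is a multiple of 3 in 7 of them, beside 52.0% of all skipped exons. The Myl12a exon among the 7 is not coding in the matched transcript.

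The fifth exon of Wt1 (part 13) adds 17 codons to the WT1 protein between its regulatory region and its zinc fingers. Its usage was 1.61%, 1.63% and 1.53% of Wt1 counts in WT and 1.98%, 1.87% and 1.84% in KO. Every KO library lay above every WT library. The log2 change was 0.26 (SE 0.04, adjusted p = 0.0196 with edgeR). Relative to its flanking exons, inclusion went from 55.5% ± 2.28 to 65.6% ± 2.14 (SD, n = 3). The other 3 tested exons of Wt1 chosen by the rule had log2 changes of 0.01 to 0.02, and no other of the 25 tested Wt1 parts passed. The level of the whole gene was 753 ± 61.0 CPM in WT and 656 ± 61.6 in KO (SD, n = 3). The call was lost without KO1 (adjusted p = 0.122), WT1 (0.0542), WT2 (0.0794) or WT3 (0.0755).

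Phactr4 encodes a regulator of protein phosphatase 1 and actin. The 81 bases of its part 17 (27 codons, sequence above) had an inclusion ratio of 42.6%, 35.5% and 37.7% in WT and 60.5%, 70.2% and 52.9% in KO. The KO libraries were higher and also more spread than WT. Usage rose by a log2 change of 0.63 (SE 0.10, adjusted p = 0.0275), while the other 9 tested exons of the rule in Phactr4 lay between -0.06 and 0.03. The call was lost without KO1 (adjusted p = 0.153), WT1 (0.0600), WT2 (0.164) or WT3 (0.105).

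Atp13a3 encodes a P5-type transport ATPase linked to polyamines. Its part 2, 90 bases or 30 codons, went from inclusion ratios of 46.8%, 42.5% and 38.3% in WT to 62.4%, 63.5% and 65.0% in KO. Usage rose by 0.62 on the log2 scale (SE 0.07, adjusted p = 0.00626). The call held in each of the 6 fits that left out 1 library, but not with diffSpliceDGE (adjusted p = 0.200) or the nearest parts as offset (0.0526). The other 25 tested exons of the rule in Atp13a3 had log2 changes from -0.10 to 0.12 and did not pass.

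Tjap1 encodes a protein associated with tight junctions and the Golgi. Its part 10 (chr17:46408749-46408878, minus strand) has 130 bases, is not coding in the matched transcript and is the exception to the multiples of 3. Inclusion ratios were 20.7%, 17.2% and 20.0% in WT and 38.9%, 29.1% and 27.7% in KO. Usage rose by 0.75 on the log2 scale (SE 0.12, adjusted p = 0.0277). The whole gene was at 59.4 ± 6.03 CPM in WT and 41.6 ± 4.76 in KO (SD, n = 3). The call was lost without KO1 (adjusted p = 0.162), WT1 (0.0746), WT2 (0.132) or WT3 (0.0516).

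**Figure D2:**
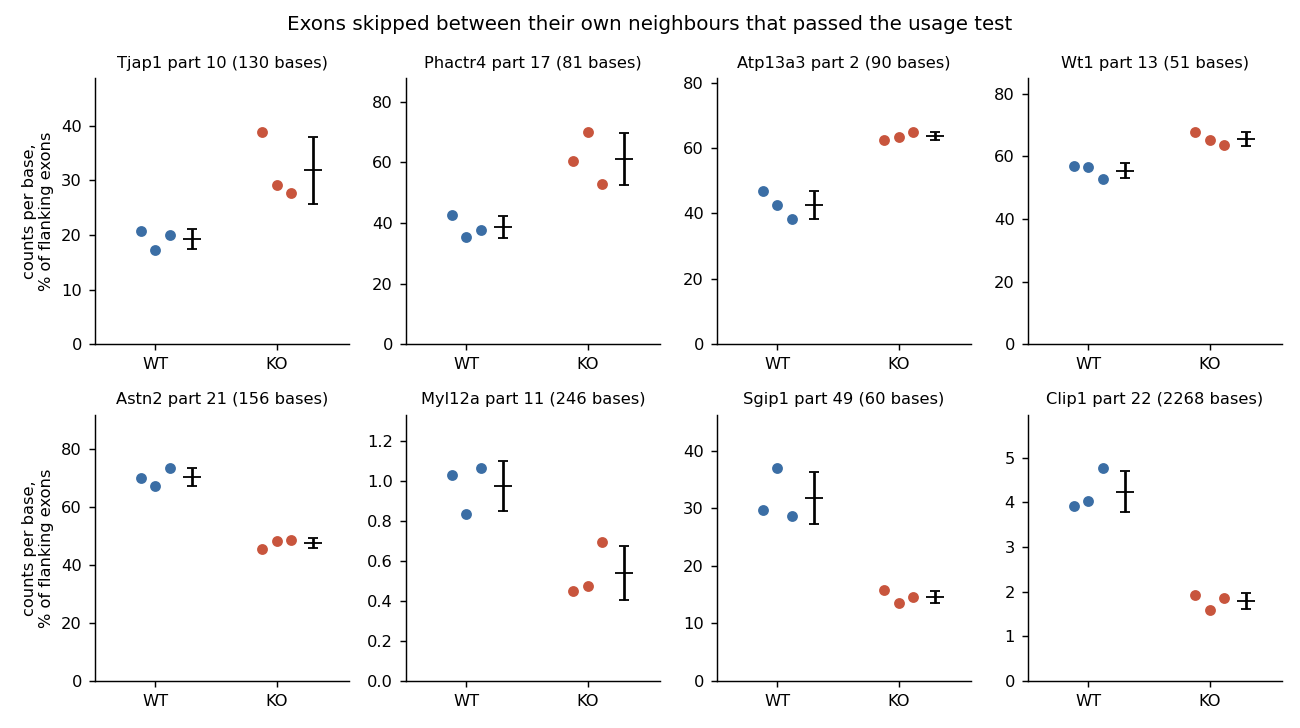
Inclusion ratio (counts per base in percent of the flanking exons, vertical axis from 0, with its own scale in each panel) of the 8 skipped exons that passed the usage test, by library in WT and KO; black bars are the mean and SD of 3 libraries. In each panel the groups do not overlap: Wt1 rises from a mean of 55.5% to 65.6%, and Clip1 falls from 4.24% to 1.79%.

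The other 4 skipped exons fell, in Clip1, Sgip1, Myl12a and Astn2. Clip1 encodes CLIP-170, which tracks growing microtubule ends. Its part 22 (chr5:124063077-124065344, minus strand) is a coding exon of 2268 bases, or 756 codons, held by 1 of 14 transcripts. It had the smallest p of all the exons tested. Usage was 2.15%, 2.41% and 2.92% in WT and 1.13%, 1.01% and 1.16% in KO. The log2 change was -1.18 (SE 0.10, adjusted p = 0.000412), and every KO library lay far below the lowest WT library. The inclusion ratio averaged 4.24% ± 0.462 over WT and 1.79% ± 0.185 over KO libraries (SD, n = 3). The exon's density was thus low in both groups, next to flanks of 117 and 128 bases. It passed in 15 of 16 alternative fits, the exception being the nearest parts as offset (adjusted p = 0.0581). The other 15 tested exons of the rule in Clip1 lay between -0.15 and 0.49 on the log2 scale and did not pass.

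Astn2 encodes astrotactin 2, a membrane protein best known from neuronal migration. Its part 21 had inclusion ratios of 70.1%, 67.4% and 73.4% in WT and 45.7%, 48.3% and 48.7% in KO. Usage fell by 0.63 on the log2 scale (SE 0.06, adjusted p = 0.00184), in each of the 6 fits that left out 1 library as well. The exon did not pass with diffSpliceDGE, with limma's diffSplice or with the nearest parts as offset (adjusted p = 0.0511 for the last). The exon has 156 bases, or 52 codons, and the whole gene was at 109 ± 12.9 CPM in WT and 88.3 ± 24.5 in KO (SD, n = 3).

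Sgip1 encodes an adaptor of clathrin-mediated endocytosis. Its part 49, 60 bases or 20 codons, had 69 to 82 counts in WT and 28 to 45 in KO, under the mean of 100 counts set for naming an exon, and is named after its values were seen. Inclusion ratios were 29.7%, 36.9% and 28.6% in WT and 15.7%, 13.6% and 14.5% in KO. Usage fell by 1.11 on the log2 scale (SE 0.18, adjusted p = 0.0438). The gene was at 90.0 ± 11.1 CPM in WT and 76.6 ± 8.53 in KO (SD, n = 3).

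Myl12a encodes a regulatory light chain of nonmuscle myosin. Its part 11 (chr17:71349329-71349574, minus strand, 246 bases) is not coding in the matched transcript and was rare, with inclusion ratios of 1.03%, 0.834% and 1.06% in WT and 0.452%, 0.476% and 0.696% in KO. Usage fell by 0.90 on the log2 scale (SE 0.14, adjusted p = 0.0352). The gene as a whole was at 726 ± 25.3 CPM in WT and 766 ± 90.2 in KO (SD, n = 3). Without KO3 the exon passed, and without any 1 of the other libraries it did not (adjusted p 0.0716 to 0.177). With a robust dispersion the adjusted p was 0.310.

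U2af1 encodes the small subunit of the factor that reads the 3′ splice site. Its parts 6 and 7 are alternative exons of 67 bases each, identical at 44 of 67 positions when laid side by side (65.7%), as the printed sequences show. Part 7 made up 5.22%, 4.58% and 5.03% of U2af1 counts in WT and 3.64%, 3.61% and 4.04% in KO. It fell by 0.39 on the log2 scale (SE 0.07, adjusted p = 0.0457). Part 6 was at 12.2%, 11.9% and 11.9% in WT and 13.8%, 14.0% and 13.3% in KO, a log2 change of 0.19 (SE 0.03) whose adjusted p of 0.0706 missed the threshold. Within the pair, part 6 held 70.0%, 72.3% and 70.3% in WT and 79.2%, 79.5% and 76.7% in KO. All 3 KO libraries lay above all 3 WT libraries, with means of 78.5% ± 1.52 and 70.9% ± 1.251 (SD, n = 3). The level of the gene was 65.6 ± 3.81 CPM in WT and 68.7 ± 1.73 in KO (SD, n = 3), and no other of its 9 tested parts passed. Without WT1, WT3, KO1, KO2 or WT2 the adjusted p of part 7 was 0.152, 0.177, 0.238, 0.107 and 0.0788, and without KO3 it was 0.0284.

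To place U2af1, pairs of consecutive exons of the rule that share no transcript and lie between the same outer parts were collected after the U2af1 values were seen, so no test is given. There were 22 such pairs in 22 genes with a mean of at least 100 counts in the pair and 10 in each exon. The share of the first exon in the pair, per base, differed between the group means by a median of 2.14 percentage points, and by under 5 points in 19 of 22 pairs. U2af1 had the largest difference (7.59 points). In the next by size, Eya4, a transcriptional coactivator with phosphatase activity, the groups overlapped (26.9% ± 6.497 in WT, 34.1% ± 3.88 in KO, SD, n = 3). In Acp1, a low-molecular-weight phosphatase, the first exon held 51.0%, 52.1% and 50.6% in WT and 54.2%, 59.8% and 55.0% in KO, but neither exon passed the usage test. The exons that distinguish the M1 and M2 forms of pyruvate kinase (Pkm) overlapped, with the first of the pair at 21.2% ± 0.994 in WT and 20.7% ± 1.54 in KO. The pair of Actn1, an actin crosslinker, did so too (43.1% ± 4.10 against 45.3% ± 1.05, SD, n = 3).

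**Figure D3:**
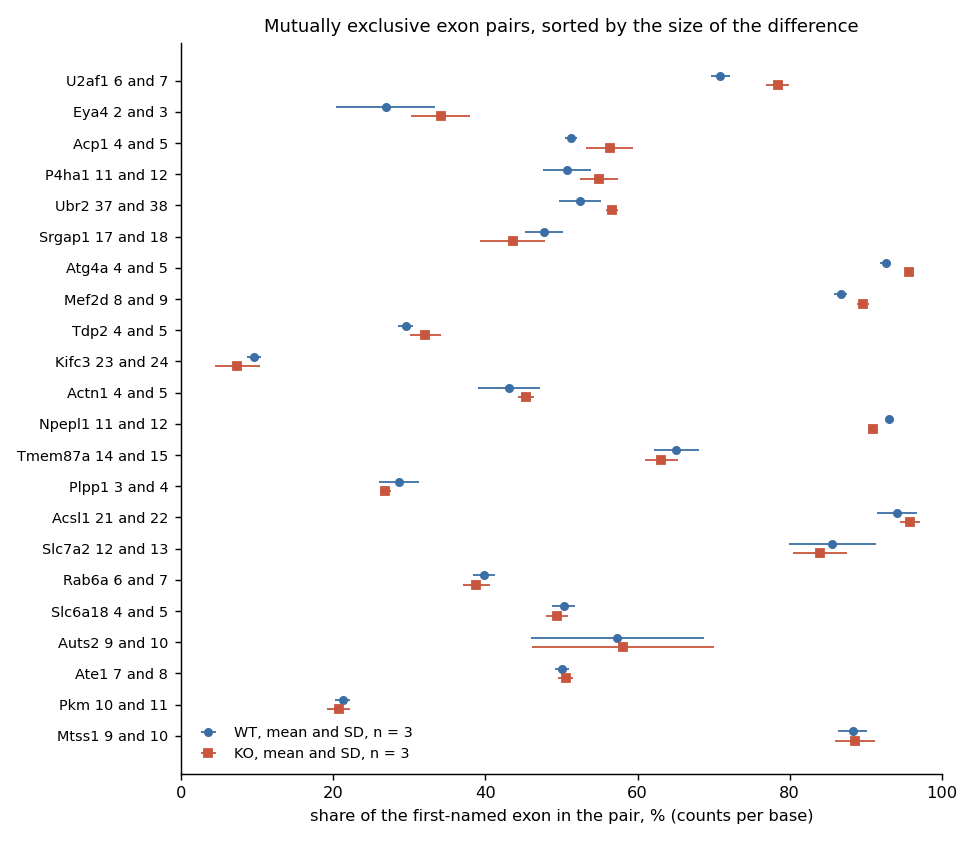
Share of the first-named exon in 22 pairs of mutually exclusive exons (horizontal axis, percent of the pair's counts per base, mean and SD of 3 libraries), sorted from the largest difference at the top; numbers after each gene are part numbers. U2af1 at the top moves from 70.9% to 78.5%, while Pkm near the bottom stays at 21.2% and 20.7%.

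Nebl encodes nebulette, an actin filament protein of heart muscle, and from other starts a LIM and SH3 domain protein of nonmuscle cells. Of its 17 tested exons of the rule 11 rose, by 1.06 to 1.30 on the log2 scale (adjusted p 0.00318 to 0.0416), and so did 12 other parts of the gene. Part 42, of 72 bases, had the largest rise: its usage was 0.184%, 0.201% and 0.172% in WT and 0.481%, 0.313% and 0.566% in KO. KO2 was the lowest of the KO libraries and still above every WT library. Of the 11 exons 10 could be fitted against their nearest parts, and they moved by -0.09 to 0.07 there, so the block shifted together. For part 42 the call was lost without KO1 (adjusted p = 0.102), WT1 (0.0734), WT2 (0.0934) or WT3 (0.0776). The gene as a whole was at 268 ± 27.2 CPM in WT and 213 ± 17.7 in KO (SD, n = 3).

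The remaining exons passed over in another way lie in Tns1 and in H2-Q4 and H2-Q6. Tns1 encodes tensin 1, which links integrins to actin. Its 39-base part 14 (under the mean of 100 counts set for naming, and named after its values were seen) had 79 to 99 counts in WT and 36 to 50 in KO, a log2 change of -1.07 (SE 0.18, adjusted p = 0.0402). H2-Q4 and H2-Q6 are class I histocompatibility genes with near-identical copies in the same cluster, so the split of reads between them is uncertain. Their 33-base exons fell by 0.81 (part 11 of H2-Q4, adjusted p = 0.00218, or 0.179 with a robust dispersion) and 0.16 (part 13 of H2-Q6, adjusted p = 0.0111) on the log2 scale. The H2-Q6 exon was the single exon of the rule that passed with the nearest parts as offset, at -0.25 (adjusted p = 0.0477), and lost its usage call without KO1 (adjusted p = 0.0942). The level of both genes was highest in KO1, at 782 CPM for H2-Q4 (196 to 336 in WT, 217 and 281 in KO2 and KO3) and 4659 for H2-Q6 (2299 to 3866 in WT, 1750 and 1502 in KO2 and KO3).

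**Figure D4:**
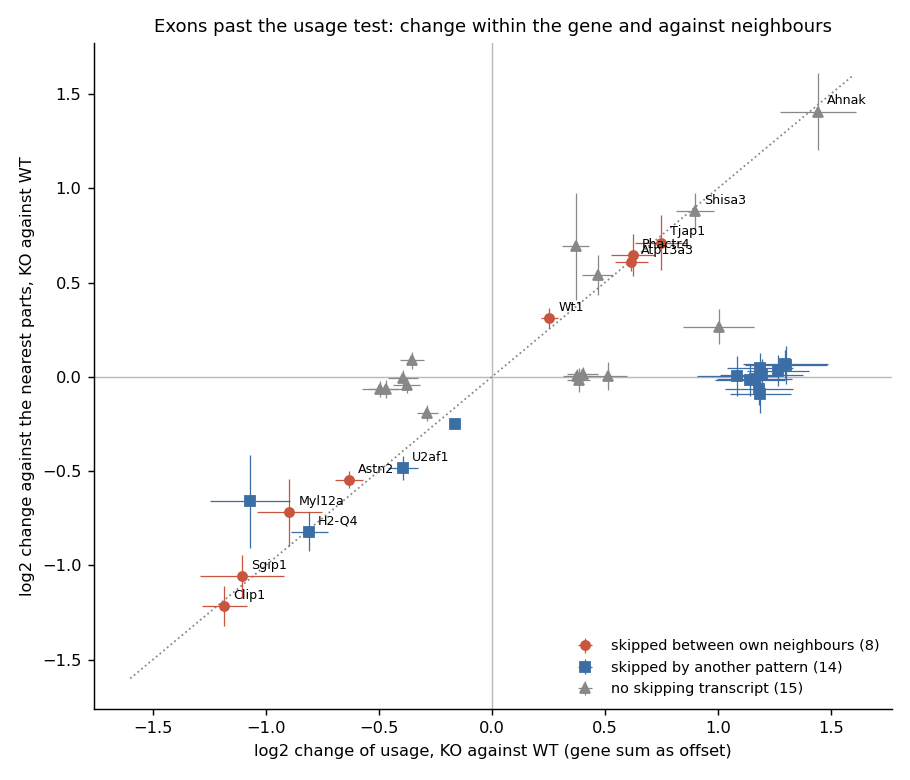
Log2 change of usage (horizontal axis) against the log2 change relative to the nearest parts (vertical axis), KO against WT, for the 37 of 38 changed exons that could be fitted both ways; bars are SEs and the dotted line marks equal values. The 8 skipped exons lie near the line, the Nebl block lies at 0 on the vertical axis with a usage change near 1.2, so that many exons changed in usage but little against their neighbours.

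Among the 15 changed exons without a skipping transcript, in 11 genes, most moved together with their neighbours. Crb2, a polarity protein of the podocyte slit diaphragm, is an example. Parts 2 to 5 at its 5′ end fell by 0.35 to 0.49 on the log2 scale (adjusted p 0.0225 to 0.0405). Part 4 went from 0.934%, 0.972% and 0.837% of Crb2 counts in WT to 0.692%, 0.603% and 0.643% in KO, with no overlap. Part 6 was at -0.29 and did not pass, and parts 7 to 14 of the rule lay between -0.04 and 0.17. Against their nearest parts the 4 exons moved by -0.06 to 0.09. Part 4 kept its call without WT3 and lost it without any 1 of the other libraries (adjusted p 0.0766 to 0.224) and when parts that overlap another gene were left out (0.0507). The whole gene was at 242 ± 18.2 CPM in WT and 213 ± 19.7 in KO (SD, n = 3). Across 1482 genes the median ratio of counts in the first 4 to the last 4 internal exons was 0.854 to 0.880 in the 6 libraries.

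Lrrfip1, which encodes a protein that binds nucleic acids and the flightless homologue, showed a rise toward its 3′ end. Its part 24 went from 0.967%, 0.888% and 1.13% in WT to 1.39%, 1.399% and 1.34% in KO (log2 change 0.47, SE 0.07, adjusted p = 0.0241), and part 25 changed by 0.38 (adjusted p = 0.0377). Parts 26 to 29 were at 0.30 to 0.34 and did not pass. The call of part 24 was lost without KO1 (adjusted p = 0.129), WT1 (0.105) or WT2 (0.109).

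**Figure D5:**
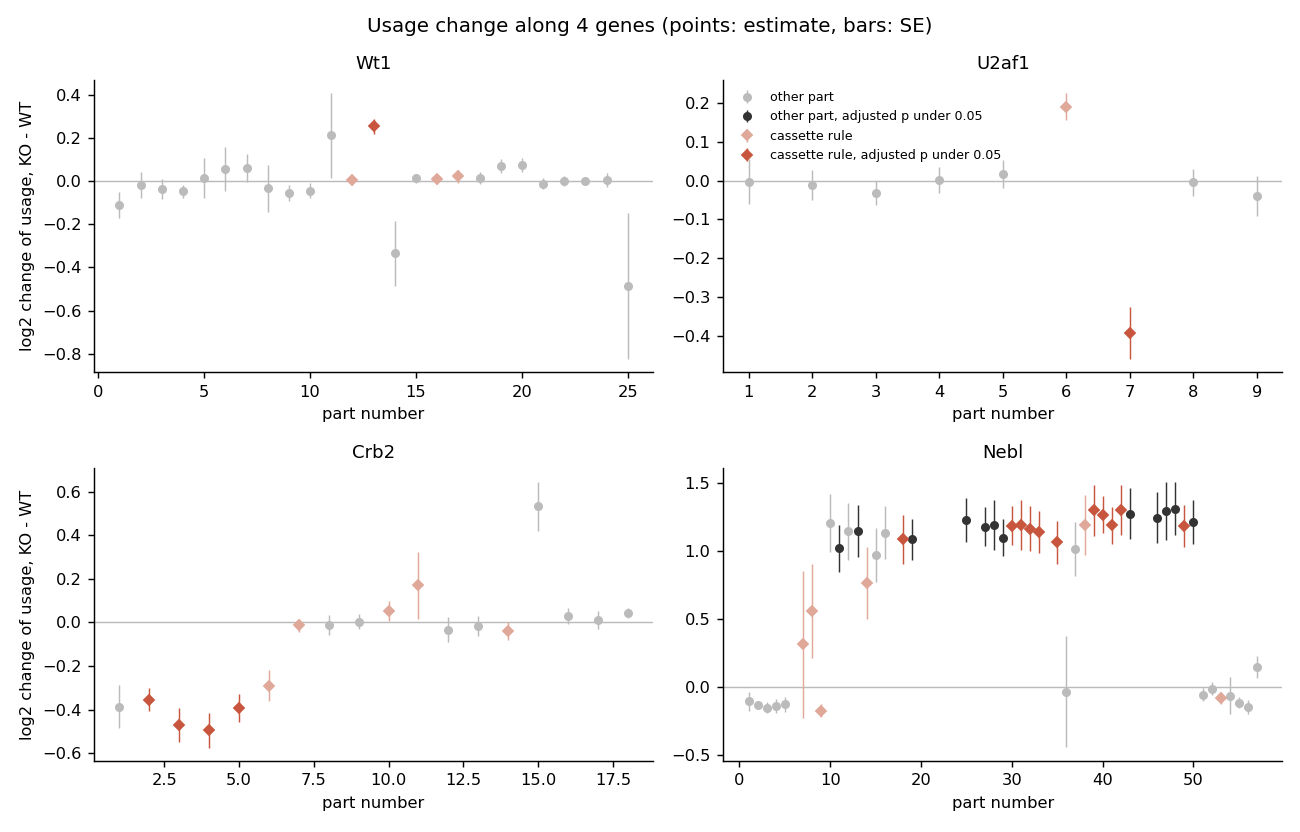
Log2 change of usage with its SE, KO against WT (vertical axis, scale differs by panel), for each tested part along Wt1, U2af1, Crb2 and Nebl (horizontal axis, part number in genome order). Diamonds are exons of the cassette rule, filled red or black points passed the test. Wt1 and U2af1 each have 1 isolated exon past the test, at 0.26 and -0.39. In Crb2 4 consecutive parts passed, and in Nebl 23 parts between numbers 11 and 50, with parts among these that did not pass.

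The largest rise among the 38 changed exons belonged to this class. Ahnak encodes a giant scaffold protein beneath the plasma membrane, and its part 21 (chr19:9111649-9111748, plus strand, 100 coding bases) went from 0.136%, 0.115% and 0.0700% of Ahnak counts in WT to 0.270%, 0.263% and 0.317% in KO. The log2 change was 1.44 (SE 0.17, adjusted p = 0.00522), and the call held in each of the 6 fits without 1 library, but not with a robust dispersion (adjusted p = 0.106) or with the nearest parts as offset (0.255). The gene was at 647 ± 53.4 CPM in WT and 649 ± 24.0 in KO (SD, n = 3). Against the nearest parts the exon's change was 1.41. Its sequence is shown as the strongest rise.
Ahnak part 21: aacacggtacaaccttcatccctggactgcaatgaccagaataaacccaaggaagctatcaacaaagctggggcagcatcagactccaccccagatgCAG

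Palld encodes palladin, a scaffold of actin bundles, and its part 29 (chr8:64181899-64182040, minus strand) rose by 1.00 (SE 0.16, adjusted p = 0.0306), from 0.169%, 0.168% and 0.221% to 0.352%, 0.433% and 0.343%. The gene level went from 223 ± 24.9 to 131 ± 8.95 CPM (SD, n = 3), and the exon's call was lost without KO1 (adjusted p = 0.116), KO2 (0.0630), WT1 (0.116) or WT2 (0.191). Smaller rises were in Sgms1, a sphingomyelin synthase (part 38, log2 change 0.52, noncoding), Plekhg5 (part 15, 0.40), Zbtb8os, also named archease, which works with the tRNA ligase (part 5, 0.39), and Cers6, a ceramide synthase (part 18, 0.37). Falls were in Ahsa2, a cochaperone of HSP90 (part 20, -0.38), and Lrp1, a large endocytic receptor (part 76, -0.29). These 6 exons had adjusted p of 0.0118 to 0.0444, and none passed without KO1 (0.0767 to 0.202) or without WT2 (0.0679 to 0.237). When parts that overlap another gene were left out, the change of Ahsa2 part 20 was -0.10 (adjusted p = 0.867) and that of Zbtb8os part 5 was 0.09 (adjusted p = 0.961), so these usage changes rest on parts shared with an overlapping gene. The exon of Shisa3 (part 4, log2 change 0.90, adjusted p = 0.00102) overlaps another gene, and reads of the overlapping genes cannot be told apart without strand. Among the 24 genes with a changed exon, 6 differed in level by over 1.5 times between the group means.

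The changed exons were also counted by gene list. The lists were chosen with earlier results of these data known, so a changed exon in a list adds no support. Each list is set beside all tested parts, of which 0.140% passed with a median log2 change of -0.00. The list of podocyte and actin cytoskeleton genes has 62 genes, 55 of them with exons of the rule, and 901 exons were tested: 2 rose (Wt1 and Palld), 0 fell, and the median was 0.00. A further list has genes with exons known to respond to the MBNL, RBFOX, PTB and NOVA proteins in muscle and brain. Of all 530 tested exons in these genes 0 rose, 1 fell (Clip1), and the median was -0.01. Whether the Clip1 exon is one that responds to these proteins was not tested. In splicing factor genes 0 of 235 rose, 1 fell (U2af1), and the median was -0.00.

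Among genes with epithelial against mesenchymal exon switches edgeR's test called 0 of 456 exons, with 32 at an unadjusted p under 0.05, while DESeq2 called 3, diffSpliceDGE 0 and limma's diffSplice 0. The smallest p was in Macf1, a crosslinker of microtubules and actin, whose part 88 was at 0.438%, 0.442% and 0.397% in WT and 0.359%, 0.363% and 0.339% in KO (log2 change -0.27, adjusted p = 0.0734). The list of genes with mutually exclusive pairs does not hold U2af1, whose part 7 passed. Among the 172 tested exons of that list edgeR's test called 0, with 13 at an unadjusted p under 0.05. None of DESeq2, diffSpliceDGE or limma's diffSplice called any of them. The smallest p was in Tpm1, a tropomyosin, whose 126-base part 35 was at 3.40%, 2.98% and 2.95% in WT and 3.46%, 4.31% and 3.66% in KO (log2 change 0.29, adjusted p = 0.247). Among 102 exons of apoptosis and p53 genes edgeR called 0, with 7 at an unadjusted p under 0.05, and the 3 other tools called 0. The smallest p was in Aifm3, a mitochondrial protein related to apoptosis-inducing factor: part 25 was at 3.51%, 3.27% and 3.25% in WT and 4.11%, 4.04% and 4.11% in KO (log2 change 0.29, adjusted p = 0.0745).

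Vegfa, the angiogenic factor that podocytes supply to glomerular endothelium, has 2 exons under the rule, both without a skipping transcript. Part 14 was at 4.49% ± 0.0456 of Vegfa counts in WT and 4.57% ± 0.111 in KO, and part 24 at 2.86% ± 0.0135 and 2.95% ± 0.0596 (SD, n = 3). The log2 changes were 0.03 (SE 0.02, adjusted p = 0.954) and 0.05 (SE 0.02, adjusted p = 0.832), while the gene itself went from 2009 ± 160 to 1172 ± 156 CPM (SD, n = 3). EdgeR, DESeq2, diffSpliceDGE and limma's diffSplice called 0 of the 2 exons, and 1 had an unadjusted p under 0.05. Other Vegfa parts did change: parts 12 and 13, which adjoin each other and are therefore outside the rule, fell by 0.70 and 0.68 on the log2 scale (adjusted p = 1.06e-05 for each with edgeR).

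Of the 8058 tested exons with an annotated skip, 24 in 23 genes lay just outside the threshold, with adjusted p from 0.05 to 0.1. The share of all parts in that range was not taken, so the number 24 is not read as a result. These exons were picked by that p and are described with no test. In usage the groups did not overlap in any of the 24, which adds no support after a choice by p on the same values. Of the 24, 16 were higher in KO and 8 lower, and 17 are skipped exons, 10 of them with a length that is a multiple of 3. Inclusion ratios overlapped in Ap3m1 (part 21), at 57.6%, 61.1% and 64.8% in WT and 56.2%, 68.2% and 61.5% in KO. Ythdf3, a reader of methylated adenosine in RNA, has a 33-base exon (part 6) at 1.03%, 1.04% and 1.04% of its counts in WT and 1.43%, 1.35% and 1.43% in KO. Its mean inclusion ratio was 98.4% in WT and 128.7% in KO. Tcf12, a helix-loop-helix transcription factor, has a 72-base exon (part 11) whose inclusion ratio was 23.0%, 24.2% and 24.4% in WT and 33.3%, 33.7% and 32.5% in KO. Ubp1, a transcription factor of the grainyhead family, has a 108-base exon (part 10) at 28.3%, 27.2% and 26.1% against 37.4%, 36.4% and 35.4%. All 3 exons were near level within a group and apart between the groups.

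Eif4h, a cofactor of the helicase eIF4A, has a 60-base exon (part 4) at inclusion ratios of 62.1%, 60.0% and 50.7% in WT and 72.8%, 71% and 74.6% in KO. The 103-base noncoding part 8 of Gtf3c4, a subunit of a transcription factor of RNA polymerase III, was rare in WT and less so in KO, at 1.11%, 2.29% and 0.534% against 6.98%, 9.27% and 8.61%. A 55-base exon of the splicing factor Rbm39 (part 42) that is held only by nonsense-mediated decay transcripts was at 7.45%, 8.59% and 9.46% in WT and 11.2%, 12.95% and 11.1% in KO. The 753-base exon of Ankrd17 (part 22), an ankyrin repeat protein, went the other way, with 28.8%, 31.5% and 30.0% in WT and 23.0%, 24.1% and 23.6% in KO, as did the 378-base exon of Zfp277 (part 17), with 7.12%, 6.55% and 8.12% against 3.86%, 3.87% and 4.27%.

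Exons on either side of the length limit of the rule are set beside the 0.140% of all parts that passed. Of 517 tested exons of 28 to 36 bases, just inside the limit, 2 passed (0.387%), those of H2-Q4 and H2-Q6. Of 254 like parts of 19 to 27 bases, just outside it, 2 passed (0.787%). Among skipped exons of 28 to 36 bases edgeR's test called 0 of 117 (0.00%), with 14 at an unadjusted p under 0.05, DESeq2 and diffSpliceDGE called 0 and limma's diffSplice 1. Just outside the limit, 1 of 85 passed (1.18%). A length that is a multiple of 3 was held by 72.0% of all skipped exons of 28 to 36 bases and by 85.2% of those of 19 to 27 bases.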

How the data were processed

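Polyadenylated RNA of 3 KO and 3 WT libraries was compared. The deposited tables give, per the file headers, a whole-number read count for each exonic part of Ensembl release 67 on NCBIM37. The deposited signal is the number of covered bases, beside the part's length and the covered fraction, and none of these was used in a test. TopHat 1.4.1 appears in the submitters' processing notes together with the human build GRCh37, while the headers give a mouse build. No source used here gives the counter or its use of strand, and counts were treated as unstranded.

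Exons, members of pairs and gene lists were chosen with earlier results of these data known. After filterByExpr, the 236050 remaining parts of genes that kept 2 or more were fitted with edgeR 4.0.16 in R 4.3.3 (glmQLFit, glmQLFTest, log of the gene's summed part counts as offset, no covariates), with Benjamini-Hochberg adjustment over all parts and a threshold of 0.05. DESeq2 1.42.0, diffSpliceDGE and limma 3.58.1 were alternatives. On simulated counts for the KO against WT comparison (236048 parts), changes were placed only in exons of the rule with a mean of at least 100 counts. Parts changed by 1.5, 2 and 4 times were recovered in 76.1%, 95.5% and 100% of cases. Of 232 calls 30 were on unchanged parts of changed genes and 21 in unchanged genes. With the nearest parts as offset recovery was 69.5%, 93.85% and 100%, and of 420 calls 196 were on unchanged parts of changed genes and 61 in unchanged genes. Recovery at lower counts was not simulated. Levels are CPM with TMM factors. Symbols were matched for 31300 of 35981 single identifiers, and 64775 of 67294 exons matched a GENCODE M21 exon.

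Named exons were those past the test with no overlap between groups, a symbol, at least 100 counts per library on average and no overlap with another gene: the 8 largest rises and 8 largest falls, 1 per gene, then the 6 smallest p in other genes; in addition, each Vegfa exon and up to 3 exons per gene list, or the smallest p where none passed. Others are marked where named.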

Additional observations from a re-analysis of the deposited data

How the results depend on the processing

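Each count was recomputed under 16 alternatives, 1 choice at a time. Exons past the threshold (38) became 79 with DESeq2, 63 with a robust dispersion, 21 with limma's diffSplice, 14 with diffSpliceDGE and 1 with the nearest parts as offset, where 1997 had an unadjusted p under 0.05. For all parts (331) DESeq2 gave 671, diffSpliceDGE 148 and the nearest parts 21. For exons with an annotated skip (23) DESeq2 gave 44, diffSpliceDGE 13 and the nearest parts 1; 8 were left when the definition was narrowed to skipped exons. For these skipped exons (8) DESeq2 gave 23, limma's diffSplice 18, the robust dispersion 16, diffSpliceDGE 3 and the nearest parts 0, with 408 at an unadjusted p under 0.05. Leaving out 1 library gave 9 to 39 exons, 112 to 458 parts, 6 to 26 exons with an annotated skip and 3 to 12 skipped exons. Of the 38 exons, 38 were shared with DESeq2, 35 with the gene sum less the part as offset and 4 with limma's diffSplice. The cause of these shifts was not tested. With the nearest parts as offset the sign reversed for Zbtb8os part 5 (-0.0177), Macf1 part 88 (0.0140) and Vegfa part 24 (-0.0267). Of the 37 changed exons that could be fitted so, 31 kept their sign; the other 6 are Zbtb8os part 5, Crb2 part 2 (0.09) and Nebl parts 32 (-0.01), 33 (-0.02), 41 (-0.09) and 49 (-0.06). Cd2bp2 in KO was at 80.1% of WT with TMM factors.

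With the replicate number as a block, 53 exons passed (36 of them shared), 562 parts, 34 exons with an annotated skip and 15 skipped exons. The labels do not say whether same-numbered libraries were paired. Deviations of same-numbered libraries correlated at 0.015, -0.014 and 0.105 over 38126 exons. Of the 3 WT libraries only WT3 correlated best with its own number in KO. Correlations of this kind cannot decide whether the libraries were paired.

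Exons with few counts limit what can be seen: the median SE of the log2 change was 0.13 for skipped exons and 0.31 for those under 5% inclusion.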
